A study of Mus musculus with 8 samples.

Results

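Interferon-induced effectors and nucleic acid sensors were examined in bulk RNA-Seq of *Hdac3* knockout (KO) and empty vector (EV) mouse cardiac endothelial cells (MCECs). The set was defined by gene name. It holds the protein-coding genes with symbols of the Ifit, Ifitm, Ifi, Oas, Isg, Gbp, Irgm, Trim and Apol families, together with named genes such as *Ifih1*, *Ddx58*, *Mb21d1*, *Tmem173*, *Usp18*, *Bst2*, *Parp9* and *Parp10* to *Parp14*. In all, 90 of the 8278 genes in the deposited table, of which 7976 are protein-coding, met this definition. That table lists only genes that passed the authors' adjusted p-value of 0.05 on these same libraries, so a gene had to differ between the groups to be in the set. *Mx2* and *Oas1b* fit the names but are listed under another gene type and were left out, and relatives such as *Oas3*, *Ifit3b* and *Ifi44l* are not in the table analysed here. The share of members past a test therefore carries little information, and the direction and size of the differences are described instead.

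MCECs are a mouse cardiac endothelial cell line. In the study, *Hdac3*, which encodes a histone deacetylase, was knocked out with an *Hdac3* guide RNA in the lentiCRISPR v2 vector (CRISPR/Cas9), and the control cells received the empty vector lentivirus. Both groups were thus transduced with lentivirus, and no interferon or virus challenge is named in the labels. There were 4 libraries in each group, and the labels do not say whether they came from separate cultures. The study's reporting summary speaks of technical replicates for its in vitro work in general, so p-values measure only the spread between these samples, which may be technical.

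Cells detect foreign or misplaced nucleic acids with sensors. RIG-I (encoded by *Ddx58*) and MDA5 (*Ifih1*) bind RNA in the cytoplasm, cGAS (*Mb21d1*) binds DNA there, and STING (*Tmem173*) relays the cGAS signal. The signal ends in the transcription of type I interferons, which act through their receptor and transcription factors such as IRF9 on a shared motif, the interferon-stimulated response element (ISRE), in the promoters of their target genes. The products of these genes block viral entry, translation and replication, and some of them are also made at a low level without infection.

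The core of this motif, written GAAANNGAAA with N for any base and searched on both strands, was looked for in RefSeq promoter windows (build GRCm38.p6) that run from 250 bases before the transcription start to 50 bases after it. A window was found for 65 of the 90 members. Below are 8 of them, shown because they carry the contrasts described further on. They include an abundant GBP gene and an abundant IRG gene (*Gbp2*, *Irgm1*) and both RNA sensors (*Ifih1*, *Ddx58*). Also shown are 2 genes of the oligoadenylate synthetase family, *Oas1a*, which was lower in *Hdac3* KO MCECs, and the Oas-like gene *Oasl1*, which was higher. The others are 2 abundant effectors with unequal differences (*Isg15*, *Ifitm3*). Each of the 8 sequences runs 5′ to 3′ on the strand of the gene, from 150 bases before the start to 30 bases after it. For *Ifih1* only the 30 bases around the match are given, because the match lies more than 30 bases inside the transcript. Capitals mark matches to the core, and where matches overlap they form 1 run of capitals.
Gbp2 (chr3:142620513-142620692, plus strand): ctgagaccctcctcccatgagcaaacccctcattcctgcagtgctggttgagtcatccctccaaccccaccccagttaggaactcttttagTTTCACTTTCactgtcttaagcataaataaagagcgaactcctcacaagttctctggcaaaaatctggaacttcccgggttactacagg
Irgm1 (chr11:48871391-48871570, minus strand): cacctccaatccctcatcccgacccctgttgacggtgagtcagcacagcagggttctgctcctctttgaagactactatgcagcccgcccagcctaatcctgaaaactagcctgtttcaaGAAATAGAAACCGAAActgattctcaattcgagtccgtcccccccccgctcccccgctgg
Ifih1 (chr2:62646208-62646237, minus strand): tggagaagagaatcGAAACAGAAAccgatc
Ddx58 (chr4:40239796-40239975, minus strand): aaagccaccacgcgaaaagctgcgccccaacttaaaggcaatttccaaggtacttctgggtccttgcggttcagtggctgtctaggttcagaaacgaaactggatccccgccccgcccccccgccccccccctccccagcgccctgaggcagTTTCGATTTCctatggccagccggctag
Oas1a (chr5:120907496-120907675, minus strand): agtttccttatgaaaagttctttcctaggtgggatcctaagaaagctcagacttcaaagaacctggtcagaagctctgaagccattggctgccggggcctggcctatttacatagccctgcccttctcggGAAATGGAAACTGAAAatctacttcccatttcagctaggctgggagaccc
Oasl1 (chr5:114923090-114923269, plus strand): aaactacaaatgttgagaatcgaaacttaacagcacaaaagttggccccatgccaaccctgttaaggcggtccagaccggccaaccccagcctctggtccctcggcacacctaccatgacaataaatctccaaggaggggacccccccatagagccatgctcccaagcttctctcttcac
Isg15 (chr4:156200789-156200968, minus strand): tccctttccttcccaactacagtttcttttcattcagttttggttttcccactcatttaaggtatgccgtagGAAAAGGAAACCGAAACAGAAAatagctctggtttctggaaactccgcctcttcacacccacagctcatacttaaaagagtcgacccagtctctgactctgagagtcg
Ifitm3 (chr7:141010715-141010894, minus strand): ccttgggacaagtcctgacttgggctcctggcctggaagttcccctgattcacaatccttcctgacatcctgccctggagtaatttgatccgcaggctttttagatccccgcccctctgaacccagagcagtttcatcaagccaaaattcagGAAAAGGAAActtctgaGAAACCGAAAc

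These sequences differ in where and how often the core occurs. *Gbp2* and *Ddx58* hold 1 match on the opposite strand, *Irgm1* and *Oas1a* hold 2 overlapping matches, *Ifitm3* holds 2 separate ones just inside the transcript, and *Isg15* holds 3 overlapping ones. *Oasl1* holds none in its whole window of 300 bases. Matches to these letters are counted on their own, whether or not they overlap another motif, and a match is a description of the sequence and does not show that a factor binds there.

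Most members were lower in *Hdac3* KO MCECs. With edgeR's quasi-likelihood test and Benjamini-Hochberg adjustment over the 8278 listed genes, 77 of the 90 members were lower at an adjusted p-value under 0.01, against 49.6% of all listed genes. The other 13 members were higher, against 47.1% of all listed genes. A log2 fold change of -1 or less, that is a drop to 50% or below, was found for 49 members (54.4%), and the share among all listed genes was 8.36%. A log2 fold change of 1 or more was found for 2 members, *Apol8* and *Trim7*, and the share among all listed genes was 4.43%. The median log2 fold change of the members was -1.14, and that of all listed genes was 0.06. These values include *Mx1*, *Iigp1*, *Apol10b* and *Trim34b*, which had too few reads for their fold changes to be read, and without them 45 of 86 members were at -1 or less and the median was -1.06.

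The libraries of the groups did not overlap for 76 members that were lower (46.6% of all listed genes) and for 12 that were higher (44.4% of all listed genes). For these 88 members the exact two-sided permutation test gave 0.0286, the smallest p-value that 4 against 4 libraries allow. Groups that do not overlap always give this value, so it adds nothing to the counts above. Values overlapped for 2 members, *Trim26* and *Trim33*. Outside the Trim family, 60 of 64 members were lower (49.6% of all listed genes) and 4 were higher (47.1% of all listed genes). The 4 were *Oasl1*, *Mb21d1*, *Isg20l2* and *Apol8*. The median log2 fold change of the 64 was -1.27. Without the members with too few reads, 57 of 61 were lower and the median was -1.25.

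**Figure D1:**
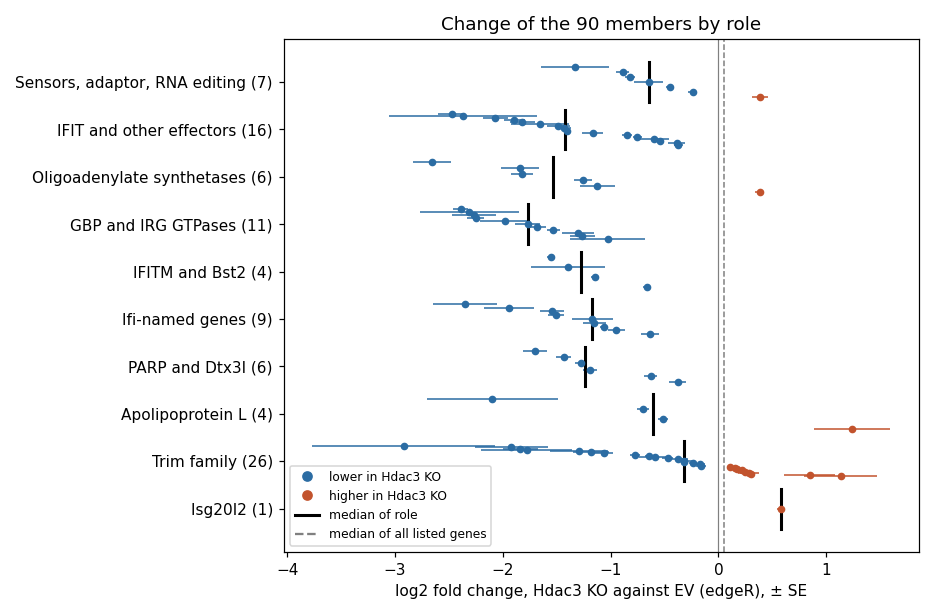
The x axis gives the log2 fold change of *Hdac3* KO against EV MCECs for each of the 90 members, with 1 standard error, and the rows are roles with the number of members in brackets. Black bars are role medians, between -1.77 for the GTPases and -0.32 for the Trim family among roles with several members, and the dashed line is the median of all listed genes (0.06).

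Facts of the whole series bear on how these values are read. The libraries held 15775327 to 22255684 reads, of which 84.3% to 85.9% lay in the listed genes. *Hdac3* transcript itself was present in all libraries, with 1934, 2067, 2055 and 2137 normalized counts (reads divided by the relative size of the library) in EV and 1551, 1458, 1489 and 1524 in *Hdac3* KO (log2 fold change -0.45, SE 0.035, adjusted p = 1.0e-13 by edgeR), and reads from an edited gene can still be counted. Of 12 endothelial markers, 5 were in the table (4 lower, 1 higher), with a summed level of 23.8 to 26.1 FPKM (fragments per kilobase of gene and per unit of library total) in EV and 19.7 to 20.7 FPKM in *Hdac3* KO. *Pecam1* was near 0 in EV (0.516 ± 0.608 normalized counts) and low in *Hdac3* KO (3.97 ± 2.93), and *Cdh5*, *Vwf* and *Erg* were not in the table analysed here. Of 8 macrophage and leukocyte markers only *Cd68* was listed (5.36 to 5.89 FPKM in EV, 11.1 to 12.5 FPKM in *Hdac3* KO), and of 6 cardiomyocyte markers none was. Listed fibroblast markers summed to 764 to 784 FPKM in EV and 572 to 590 FPKM in *Hdac3* KO (4 of 6 listed, 3 lower and 1 higher). Most of that drop lay in *Dcn* (mean 350.6 to 139.3 FPKM), while *Col1a1*, the most abundant of them, was higher (373.1 to 403.7 FPKM, log2 fold change 0.23). Listed smooth muscle and pericyte markers summed to 29.5 to 35.6 FPKM in EV and 5.74 to 7.16 FPKM in *Hdac3* KO (3 of 7 listed, all lower). The part of cell type in the differences below was not tested, and in bulk RNA fewer cells of a type and less RNA per cell cannot be told apart.

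The RNA sensor genes *Ifih1* and *Ddx58* were lower and *Mb21d1* was higher in *Hdac3* KO MCECs. *Ifih1* (ENSMUSG00000026896, mm10 chr2:62595798-62646255, minus strand) had 553, 585, 514 and 569 normalized counts in EV and 281, 325, 316 and 275 in *Hdac3* KO (log2 fold change -0.89, SE 0.064, adjusted p = 1.0e-14). *Ddx58* (ENSMUSG00000040296, chr4:40203773-40239828, minus strand) had 1445, 1330, 1271 and 1279 in EV and 800, 750, 763 and 692 in *Hdac3* KO (-0.82, SE 0.046, adjusted p = 1.0e-17). In both genes every *Hdac3* KO library lay far below the lowest EV library, and the 2 differences were of like size. *Dhx58*, which encodes LGP2, the third RIG-I-like receptor, had 168, 103, 129 and 119 normalized counts in EV and 92.2, 84.7, 86.2 and 66.3 in *Hdac3* KO (log2 fold change -0.65, SE 0.134).

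*Mb21d1*, which encodes the cytosolic DNA sensor cGAS, had 260, 251, 243 and 239 normalized counts in EV and 307, 347, 311 and 329 in *Hdac3* KO. All 4 *Hdac3* KO libraries were above all 4 EV libraries (log2 fold change 0.39, SE 0.071, adjusted p = 7.4e-06), the opposite direction to *Ifih1* and *Ddx58*. *Tmem173*, its adaptor STING, had 1077, 1031, 994 and 1042 in EV and 950, 845, 887 and 834 in *Hdac3* KO, a smaller difference that still left no overlap (log2 fold change -0.24, SE 0.044, adjusted p = 8.4e-06). On the FPKM scale, which allows levels of different genes to be compared, *Tmem173* stood at 24.1 ± 0.815 FPKM in EV and 18.8 ± 1.14 FPKM in *Hdac3* KO, well above *Mb21d1* at 3.28 FPKM in EV and 3.94 FPKM in *Hdac3* KO.

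*Adar*, which edits adenosines in double-stranded RNA, had 1586, 1495, 1493 and 1505 normalized counts in EV and 1119, 1128, 1112 and 1084 in *Hdac3* KO (log2 fold change -0.45, SE 0.036). *Zbp1*, a sensor of left-handed double-stranded nucleic acid, was scarce, with 20, 15, 19 and 30 reads in EV and 8, 5, 16 and 7 in *Hdac3* KO (log2 fold change -1.33, SE 0.318, adjusted p = 2.5e-04). After scaling, the highest *Hdac3* KO library of *Zbp1* (15 normalized counts) came close to the lowest EV library (16.6). Of the 7 members in this role, 6 were lower and 1 was higher (median log2 fold change -0.65), where 49.6% of all listed genes were lower and 47.1% higher. Neither chain of the type I interferon receptor (*Ifnar1*, *Ifnar2*) was in the table analysed here.

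**Figure D2:**
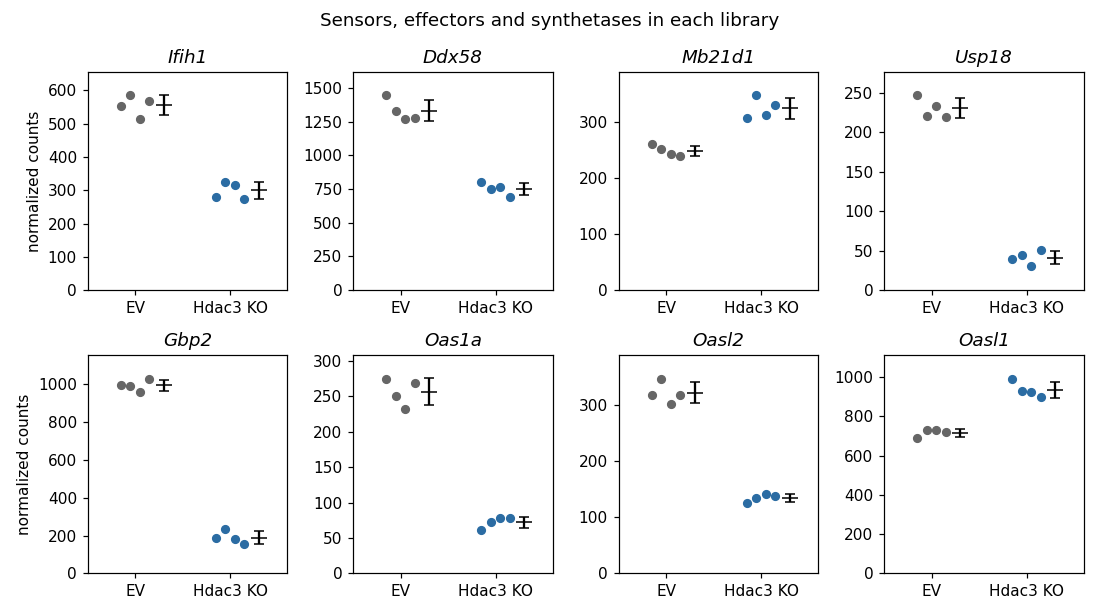
Normalized counts (y axis, from 0) of 8 members in each of the 4 EV (grey) and 4 *Hdac3* KO (blue) libraries, with the mean and SD beside the points. *Mb21d1* (239 to 260 against 307 to 347) and *Oasl1* (688 to 730 against 898 to 993) were higher in *Hdac3* KO, the other 6 were lower, and the groups overlapped in none of the 8.

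All 16 genes of the group of IFIT proteins and other antiviral effectors were lower (median log2 fold change -1.42), and 10 of them were at -1 or less, or 9 of 15 (median -1.40) without *Mx1*, whose reads were few. Of all listed genes, 49.6% were lower and 8.36% at -1 or less. *Usp18* (ENSMUSG00000030107, chr6:121245906-121270916, plus strand), which encodes the protease that removes ISG15 from proteins and also restrains interferon receptor signalling, had 247, 221, 234 and 220 normalized counts in EV and 39.8, 44.6, 30 and 50.4 in *Hdac3* KO (log2 fold change -2.47, SE 0.122, adjusted p = 2.9e-19). *Rtp4*, an interferon-induced inhibitor of flavivirus replication, had 282, 253, 227 and 283 in EV and 73.3, 70.1, 53.4 and 53.2 in *Hdac3* KO (-2.07, SE 0.113). *Xaf1*, which encodes an interferon-induced antagonist of the apoptosis inhibitor XIAP, had 334, 327, 301 and 320 in EV and 97.4, 89.2, 97.5 and 61.6 in *Hdac3* KO (-1.89, SE 0.101). For these 3 genes the highest *Hdac3* KO library was under the lowest EV library by a wide margin.

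The 3 listed Ifit genes, whose products bind foreign RNA and hold back its translation, were lower by unequal amounts. *Ifit3* had 202, 190, 183 and 218 normalized counts in EV and 46.1, 64.7, 56.2 and 56.9 in *Hdac3* KO (log2 fold change -1.82, SE 0.116). *Ifit1* had 1147, 1192, 1116 and 1077 in EV and 604, 642, 636 and 630 in *Hdac3* KO (-0.85, SE 0.044), and *Ifit2* had 1625, 1531, 1528 and 1452 against 869, 912, 951 and 903 (-0.75, SE 0.040). The groups did not overlap for any of the 3. In *Ifit3*, 51.2% of the 50-base stretches of its transcripts also occur in *Ifit3b*, so its reads may in part come from that gene. Other effectors at -1 or less were *Sp100* (-1.49), a component of nuclear bodies, *Samd9l* (-1.43), an inhibitor of translation, *Cmpk2* (-1.65), a mitochondrial nucleotide kinase, *Lgals3bp* (-1.40), a secreted glycoprotein, and *Isg20* (-1.17), an RNA exonuclease. *Cmpk2* was scarce, with 34 ± 9.45 normalized counts in EV, whereas *Lgals3bp* had 2398, 2451, 2524 and 2506 in EV and 949, 912, 1031 and 845 in *Hdac3* KO.

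The smallest differences of this group were those of *Isg15* and *Herc6*. *Isg15*, the ubiquitin-like protein that is conjugated to other proteins after interferon, had 804, 835, 863 and 873 normalized counts in EV and 672, 650, 647 and 646 in *Hdac3* KO (log2 fold change -0.37, SE 0.045, adjusted p = 3.8e-09). *Herc6*, its main conjugating ligase in mice, had 289, 289, 269 and 270 in EV and 202, 211, 219 and 218 in *Hdac3* KO (-0.39, SE 0.075). Both were thus lower without overlap, but by far less than *Usp18*, which acts against them. *Eif2ak2*, the kinase PKR that halts translation on double-stranded RNA, had a log2 fold change of -0.55 (SE 0.039), and *Rsad2*, the radical enzyme viperin, one of -0.60 (SE 0.142). *Mx1* was close to the detection limit, with 3, 4, 6 and 8 reads in EV and 1, 2, 1 and 0 in *Hdac3* KO, too few for a fold change.

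Of the 6 listed genes of the oligoadenylate synthetase family, 5 were lower (49.6% of all listed genes) and *Oasl1* was higher (47.1%). The active enzymes of the family make 2′-5′ linked oligoadenylates on double-stranded RNA, which activate RNase L. *Oas2* had 117, 97.3, 133 and 129 normalized counts in EV and 16.8, 22.8, 13.1 and 22.4 in *Hdac3* KO (log2 fold change -2.66, SE 0.175, adjusted p = 8.3e-16). *Oas1a* (ENSMUSG00000052776, chr5:120896256-120907521, minus strand) had 275, 250, 232 and 268 in EV and 60.7, 72.8, 77.8 and 77.5 in *Hdac3* KO (-1.82, SE 0.102, adjusted p = 1.2e-17). *Oas1g* (-1.84) and *Oas1c* (-1.12) lie in the same cluster and were lower as well. Because 57.6% of the 50-base stretches of *Oas1a* transcripts occur in *Oas1g*, the reads of these 2 genes cannot be fully separated.

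The 2 Oas-like genes, neighbours on chromosome 5 in the same orientation, moved in opposite directions. *Oasl2* (ENSMUSG00000029561, chr5:114896936-114912234) had 318, 347, 302 and 318 normalized counts in EV and 125, 134, 142 and 137 in *Hdac3* KO (log2 fold change -1.25, SE 0.082, adjusted p = 7.2e-16). *Oasl1* (ENSMUSG00000041827, chr5:114923240-114937915) had 688, 730, 730 and 721 in EV and 993, 927, 926 and 898 in *Hdac3* KO (0.38, SE 0.045, adjusted p = 1.5e-09). The protein of *Oasl1* is known in mice as a translational inhibitor of *Irf7* mRNA and makes no oligoadenylates. No motif match was found in the window of either gene, so the presence of the core in the window does not divide this pair. In FPKM, *Oasl1* stood at 17.6 ± 0.458 in EV and 21.1 ± 0.939 in *Hdac3* KO and was the most abundant of the 6 listed family members in both groups.

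The interferon-inducible GTPases, guanylate-binding proteins (GBPs) and immunity-related GTPases (IRGs) that attack the vacuoles of intracellular pathogens, had the lowest median of the roles with several members. All 11 were lower at a log2 fold change of -1 or less, a size found for 8.36% of all listed genes, with a median of -1.77, or -1.73 over the 10 without *Iigp1*, whose reads were few. *Gbp2* (ENSMUSG00000028270, chr3:142620602-142638008, plus strand) had 995, 989, 960 and 1029 normalized counts in EV and 189, 234, 182 and 153 in *Hdac3* KO (-2.39, SE 0.069, adjusted p = 6.3e-26). *Gbp3* had 494, 478, 447 and 468 in EV and 105, 101, 98.4 and 91.5 in *Hdac3* KO (-2.25, SE 0.079), and *Gbp7* had 291, 243, 256 and 261 against 80.6, 101, 60.9 and 64.4 (-1.77, SE 0.113). The libraries within a group lay close together in comparison with the gap between the groups. *Gbp2* was the most abundant of the 11 in EV, at 21.1 ± 0.563 FPKM, and fell to 3.71 ± 0.663 FPKM in *Hdac3* KO.

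Among the IRGs, *Irgm1* (ENSMUSG00000046879, chr11:48861968-48871683, minus strand), a regulatory GTPase that keeps the effector IRGs inactive on host membranes, had 686, 642, 659 and 650 normalized counts in EV and 224, 232, 210 and 244 in *Hdac3* KO (log2 fold change -1.53, SE 0.061, adjusted p = 6.0e-22). *Irgm2*, another regulator, had 489, 445, 435 and 453 in EV and 135, 138, 170 and 125 in *Hdac3* KO (-1.68, SE 0.080). *Igtp*, also known as Irgm3, had 207, 208, 173 and 211 against 94.3, 66.5, 104 and 69.1 (-1.26, SE 0.118). The regulators were therefore lower together, and their groups did not overlap. *Iigp1*, an effector IRG, was scarce, with 14, 10, 9 and 19 reads in EV and 5, 3, 1 and 2 in *Hdac3* KO.

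The remaining GTPases had lower counts. *Gbp5* (-2.27), *Gbp9* (-1.98) and *Gbp6* (-1.30) had 70.6 ± 3.83, 43.7 ± 4.16 and 109 ± 12.3 normalized counts in EV. All of the 50-base stretches of *Gbp6* occur in transcripts of other annotated gene entries. For 93% of them this is a second entry that also carries the symbol *Gbp6*. The value of *Gbp6* may thus stand for more than 1 gene entry. *Gbp4* had 16.5 ± 7.17 in EV and 8.1 ± 2.58 in *Hdac3* KO (log2 fold change -1.02, SE 0.348, adjusted p = 6.1e-03), and this call was lost under several other settings, for instance without EV replicate 3 (log2 fold change -0.69).

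Restriction factors of the cell membrane were among the most abundant members. *Ifitm2*, *Ifitm3* and *Bst2* stood at 292 ± 8.21, 221 ± 6.22 and 182 ± 5.40 FPKM in EV. *Ifitm3*, which blocks fusion of viruses in endosomes, had 2784, 2711, 2882 and 2846 normalized counts in EV and 999, 900, 940 and 981 in *Hdac3* KO (log2 fold change -1.56, SE 0.036, adjusted p = 1.0e-28). *Bst2*, or tetherin, which holds budding virions at the surface, had 2635, 2645, 2481 and 2650 in EV and 1182, 1193, 1230 and 1093 in *Hdac3* KO (-1.15, SE 0.036). *Ifitm2* had 3360, 3321, 3464 and 3536 against 2230, 2147, 2168 and 2085 (-0.67, SE 0.031). *Ifitm3* was thus lower by more than its neighbour *Ifitm2*, although 48.5% of the 50-base stretches of *Ifitm2* are shared with other annotated transcripts. *Ifitm10*, a family member not known as interferon-induced, had 18, 13, 15 and 20 reads in EV and 3, 9, 10 and 5 in *Hdac3* KO.

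All 9 members named Ifi were lower (median log2 fold change -1.17), against 49.6% of all listed genes. *Ifi27* (ENSMUSG00000064215, chr12:103434211-103440239, plus strand), which encodes a small interferon-induced membrane protein, ranked 2 in level among all members at 260 ± 10.8 FPKM in EV. It had 4986, 4560, 4643 and 4799 normalized counts in EV and 2153, 2336, 2448 and 2141 in *Hdac3* KO (-1.06, SE 0.035, adjusted p = 3.5e-24). Its neighbour *Ifi27l2a* had 710, 564, 676 and 672 in EV and 241, 258, 231 and 193 in *Hdac3* KO (-1.51, SE 0.074), and *Ifi27l2b* had 159, 201, 187 and 192 against 82.7, 87.4, 79.7 and 84 (-1.15, SE 0.105). The groups were apart in each of the 3.

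The Ifi symbols cover unrelated proteins. *Ifi204* (-1.55, SE 0.113), *Ifi203* (-1.17, SE 0.192) and *Ifi202b* (-0.95, SE 0.078), which encode DNA-binding p200 proteins and lie near each other on chromosome 1, had 206 ± 21.9, 63.9 ± 17.4 and 441 ± 57 normalized counts in EV. *Ifi47*, an IRG by its protein, had 51.2 ± 7.13 in EV and 13.4 ± 5.15 in *Hdac3* KO (-1.94), and *Ifi44* had 29.6 ± 3.31 and 5.77 ± 1.56 (-2.35, SE 0.297). *Ifi35*, which encodes a leucine zipper protein, had the smallest difference of the 9, with 247, 304, 293 and 290 in EV and 202, 172, 187 and 174 in *Hdac3* KO (-0.63, SE 0.083).

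The ADP-ribosyltransferase genes of the interferon response and *Dtx3l*, the ubiquitin ligase that pairs with PARP9, were all lower (6 of 6, against 49.6% of all listed genes, median log2 fold change -1.24). *Parp14* had 203, 212, 240 and 205 normalized counts in EV and 55.5, 71, 75 and 61.6 in *Hdac3* KO (-1.70, SE 0.110). *Parp9* had 745, 663, 643 and 730 in EV and 216, 269, 285 and 257 in *Hdac3* KO (-1.43, SE 0.068), and *Dtx3l* had 575, 623, 512 and 540 against 242, 266, 243 and 232 (-1.19, SE 0.068). *Parp9* and *Dtx3l* start from opposite strands at one place on chromosome 16 and overlap in 9.4% of the exonic bases of *Parp9*, and whether reads were counted by strand is not given in the sources used here. *Parp12* was lower by a like amount, with 755, 716, 741 and 744 in EV and 297, 309, 297 and 315 in *Hdac3* KO (-1.28, SE 0.054). *Parp10* (-0.63, SE 0.058) and *Parp11* (-0.38, SE 0.080) had the smallest differences, and their groups did not overlap either.

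Apolipoprotein L genes, of which mouse *Apol9a* and *Apol9b* are interferon-induced, were lower in 3 of 4 cases, where 49.6% of all listed genes were lower. *Apol9a* had 1338, 1150, 1285 and 1225 normalized counts in EV and 899, 895, 897 and 804 in *Hdac3* KO (log2 fold change -0.52, SE 0.046), and *Apol9b* had 853, 791, 782 and 892 against 533, 530, 525 and 457 (-0.70, SE 0.054). These 2 genes share 55.3% of the 50-base stretches of *Apol9a*, so they are not independent observations. *Apol8* went the other way from a low level, with 5, 6, 4 and 10 reads in EV and 13, 21, 12 and 19 in *Hdac3* KO (1.24, SE 0.350, adjusted p = 1.4e-03). *Apol10b* had 7, 6, 12 and 8 reads in EV and 6, 0, 0 and 2 in *Hdac3* KO, and its call was lost without EV replicate 3.

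*Isg20l2*, a nucleolar exonuclease of ribosomal RNA processing that matched the name pattern but belongs to none of the interferon roles, had 1071, 977, 1004 and 1024 normalized counts in EV and 1541, 1480, 1507 and 1580 in *Hdac3* KO (log2 fold change 0.58, SE 0.038, adjusted p = 8.1e-16). It was higher in every *Hdac3* KO library, in contrast to *Isg20*.

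**Figure D3:**
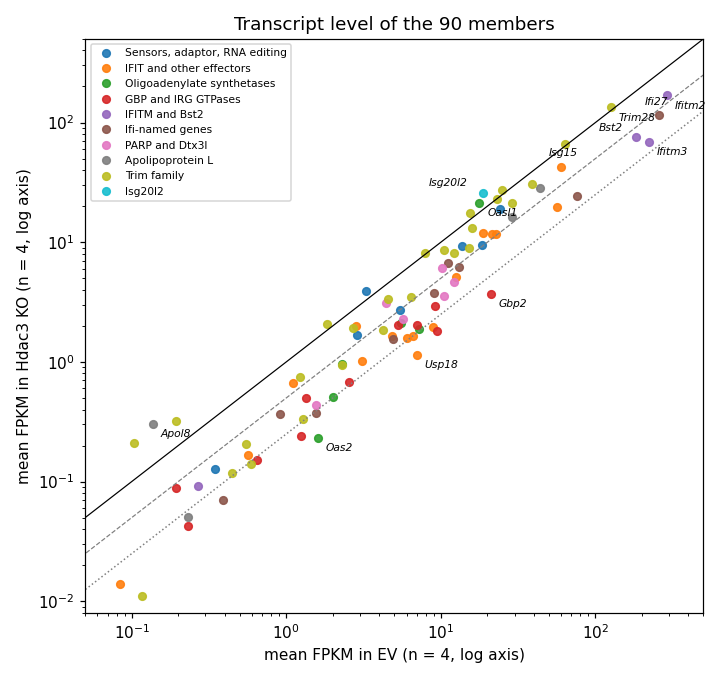
Mean FPKM of each of the 90 members in EV (x axis) and *Hdac3* KO (y axis) MCECs, both log axes, coloured by role. The solid line marks equal levels, the dashed line a drop to 50% and the dotted line a drop to 25%, and most points outside the Trim family lie below the solid line at all levels, from *Ifitm2* (292 FPKM in EV) down to genes under 1 FPKM.

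Level and size of difference were both spread widely. In EV, 5 members were above 100 FPKM, 30 were between 10 and 100, 38 between 1 and 10, and 17 under 1 FPKM. In *Hdac3* KO, 3 were above 100 FPKM and 29 under 1 FPKM. Summed over the 63 members other than *Isg20l2* and the Trim family, the level was 1584 ± 33 FPKM in EV (SD, n = 4) and 739 ± 23 FPKM in *Hdac3* KO (SD, n = 4), with ranges of 1541 to 1616 and 705.8 to 757.4. *Trim28* ranked 5 in level in EV (126 ± 1.74 FPKM) and 2 in *Hdac3* KO (134 ± 1.22 FPKM), where *Ifi27*, *Ifitm3* and *Bst2* were below it.

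The Trim family was mixed. Many TRIM proteins are ubiquitin ligases, and only some TRIM proteins are interferon-induced or act in antiviral signalling. Of 26 listed Trim genes, 17 were lower (65.4%, against 49.6% of all listed genes) and 9 higher (34.6%, against 47.1%). Their median log2 fold change was -0.32, and 14 lay within 0.5 of 0. Scaling changes the direction of 1 of these: *Trim32* had a log2 fold change of 0.11 (SE 0.035) and lost it when libraries were scaled by their totals alone (-0.0049).

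A group of 7 Trim genes had a log2 fold change of -1 or less, or 6 of 25 without *Trim34b*, whose reads were few, against 8.36% of all listed genes. *Trim21*, an antibody receptor in the cytoplasm, had 81.5, 149, 132 and 111 normalized counts in EV and 69.1, 61.9, 37.5 and 42 in *Hdac3* KO (-1.18, SE 0.169, adjusted p = 9.8e-08). *Trim12c*, a mouse relative of the retroviral restriction factor TRIM5, had 309, 269, 308 and 288 in EV and 139, 148, 134 and 142 in *Hdac3* KO (-1.06, SE 0.083, adjusted p = 9.3e-14). *Trim30a*, its neighbour on chromosome 7, had 91, 88.4, 85.3 and 97.1 against 26.2, 30, 21.6 and 23.3 (-1.84, SE 0.161). The groups were apart in all 3. *Trim14* (-1.29), *Trim34a* (-1.92) and *Trim63* (-1.78), a muscle ligase, had group means below 30 normalized counts, and *Trim34b* had 5, 4, 3 and 5 reads in EV and 0, 2, 0 and 0 in *Hdac3* KO. The reads of *Trim63* in *Hdac3* KO were 2, 4, 12 and 1. Leaving out 1 library moved its log2 fold change between -2.752 and -1.435.

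The abundant Trim genes differed by unequal amounts. *Trim25*, which ubiquitinates RIG-I signalling components, had 2987, 3082, 2955 and 2962 normalized counts in EV and 2368, 2457, 2427 and 2361 in *Hdac3* KO (log2 fold change -0.32, SE 0.029). *Trim56*, a ligase that acts on STING and TLR3 signalling, had 2515, 2712, 2570 and 2717 in EV and 1654, 1858, 1586 and 1637 in *Hdac3* KO (-0.64, SE 0.039). *Trim2*, a ligase studied mostly in neurons, had 914, 944, 838 and 889 against 513, 514, 546 and 524 (-0.77, SE 0.049). The 3 were lower in every *Hdac3* KO library. *Trim62* (-0.58), *Trim24* (-0.47), *Trim65* (-0.38), *Trim11* (-0.32), *Trim35* (-0.24), *Trim26* (-0.17) and *Trim41* (-0.16) completed the lower ones, and the call of *Trim41* was lost without EV replicate 3 or without *Hdac3* KO replicate 4.

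Those that were higher included *Trim28*, the corepressor KAP1 that silences endogenous retroviruses, with 7478, 7735, 7690 and 7579 normalized counts in EV and 8895, 8902, 8745 and 8840 in *Hdac3* KO (log2 fold change 0.21, SE 0.025, adjusted p = 1.0e-09). *Trim27* had 1154, 1132, 1116 and 1111 in EV and 1409, 1278, 1415 and 1444 in *Hdac3* KO (0.30, SE 0.040), and *Trim47* (0.24), *Trim59* (0.17) and *Trim33* (0.15) were close behind. The calls of *Trim59* and *Trim33* were lost when libraries were scaled by their totals alone. The same scaling gave smaller log2 fold changes for *Trim28* (0.098), *Trim27* (0.181) and *Trim47* (0.126), which kept their calls. *Trim16* (0.28, SE 0.098, adjusted p = 6.8e-03) was the member nearest to the cut-off, with 122, 133, 145 and 136 normalized counts in EV and 157, 157, 156 and 183 in *Hdac3* KO. Its call was lost in 7 alternative settings, among them without *Hdac3* KO replicate 4 (0.23). *Trim36* (0.85) and *Trim7* (1.13) were scarce, at 16.3 ± 3.63 and 7.49 ± 2.62 normalized counts in EV, and the call of *Trim7* was lost without EV replicate 3.

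Many members are neighbours in the genome, and 10 groups of at least 3 members lay within 351 kb or less each. In 8 of these groups every member was lower, where 49.6% of all listed genes were, and neighbours that share sequence are not separate observations. The *Gbp5*, *Gbp7*, *Gbp3* and *Gbp2* group on chromosome 3 ranged from -2.39 to -1.77 in log2 fold change, and the *Oas2*, *Oas1c*, *Oas1g* and *Oas1a* group on chromosome 5 ranged from -2.66 to -1.12. The Trim group of *Trim34a*, *Trim34b*, *Trim12c* and *Trim30a* on chromosome 7 was lower throughout, but 56.8% of the 50-base stretches of *Trim34b* occur in *Trim34a* and 33.7% of those of *Trim12c* in other annotated transcripts, so these counts overlap in part. On chromosome 11, *Irgm1* and *Ifi47* were lower while *Trim7* between *Trim41* and *Irgm1* was higher, and on chromosome 15 *Apol8* was higher beside 3 lower Apol genes. The table also lists 10 genes inside these groups that are no members, and all 10 were lower (49.6% of all listed genes). Several of the 10, such as *Oas1b*, *Tgtp1*, *Tgtp2*, *Mnda* and *Mndal*, belong to interferon-induced families themselves.

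**Figure D4:**
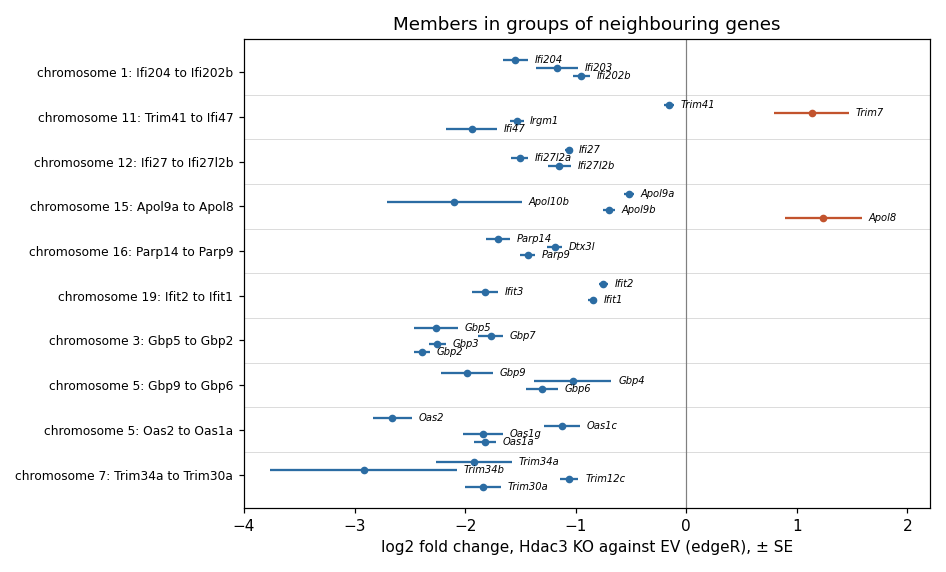
Log2 fold changes (x axis, with 1 standard error) of members in 10 groups of neighbouring genes (rows, named by chromosome and the outermost members). Blue points were lower and red points higher in *Hdac3* KO MCECs, and the red points are *Trim7* (1.13) and *Apol8* (1.24).

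The motif core was frequent in the windows of members. It occurred in 31 of the 65 members with a window (47.7%), against 3.99% of all 27025 genes with a RefSeq window and 3.97% of the 6452 listed genes with one. Members were chosen by name, mostly from interferon-induced families, so this share describes the choice of genes and not an effect of *Hdac3* KO. Genes that share sequence, such as *Oas1a* and *Oas1g*, are counted separately. All 7 GTPase genes with a window held the core, as did 3 of 5 genes of the oligoadenylate synthetase family. The core occurred in 2 of 4 sensor genes (*Ifih1* and *Ddx58*), 3 of 4 membrane restriction factor genes and 3 of 4 Apol genes. Lower shares were found for the antiviral effectors (5 of 13), *Dtx3l* with the Parp genes (1 of 3), the Trim genes (6 of 19) and the Ifi genes (1 of 5). Another motif, TTCNNNGAA, the core of the gamma-interferon activation site, which reads the same on both strands, occurred in 14 of the 65 (21.5%), against 9.55% of all genes with a window.

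By direction, 31 of 55 lower members with a window (56.4%) held the core, and 0 of 10 higher members did. Among all listed genes with a window the share was 3.97%, so 0 of 10 does not set the higher members apart from them. The 10 higher ones include *Oasl1*, *Mb21d1*, *Isg20l2*, *Apol8* and *Trim28*. Within the Trim family the median log2 fold change was -1.12 for the 6 genes with a match and -0.16 for the 13 without. Outside that family the medians were -1.17 for 25 genes with a match and -1.19 for 21 without. Among the antiviral effectors the median was -0.60 for 5 genes with a match and -1.42 for 8 without, with no test made. *Isg15*, with 3 overlapping matches shown above, differed by only -0.37, whereas *Xaf1* (-1.89) and *Lgals3bp* (-1.40) held none in the window. The absence of a match says only that these letters are not in the window.

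**Figure D5:**
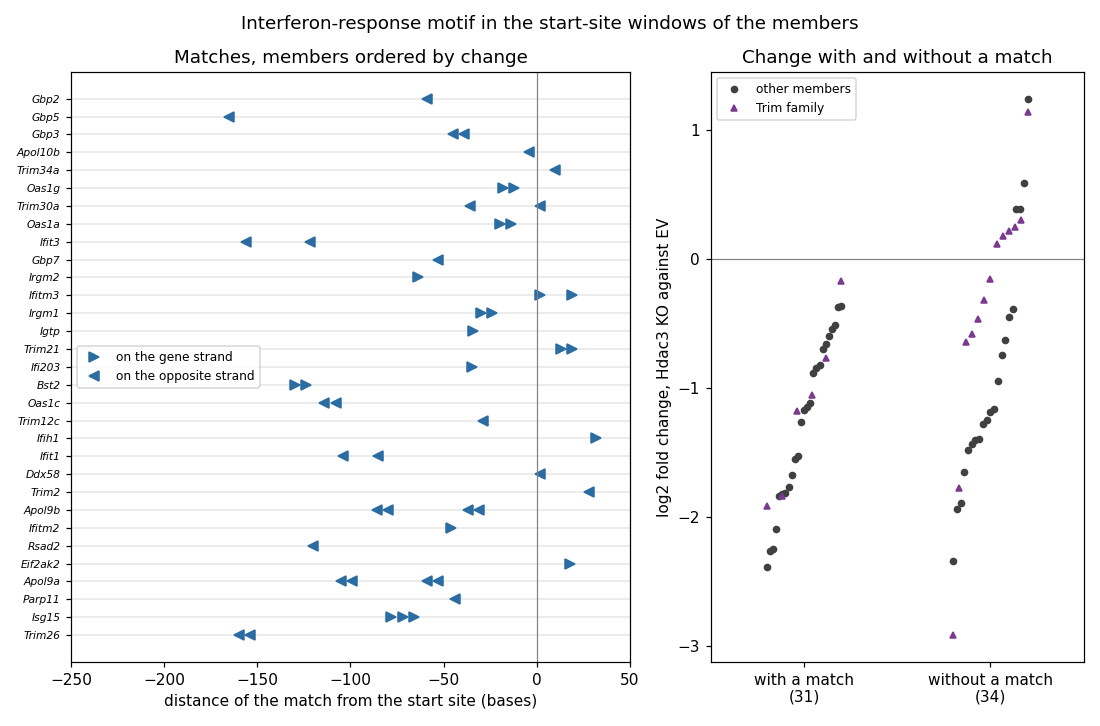
Left, distance in bases of each match to the interferon-response core from the transcription start (0), for the 31 members that hold 1, all start sites of a gene together and genes ordered from the lowest log2 fold change at the top. Right, log2 fold change of members with (31) and without (34) a match, with Trim genes as triangles. No point with a match is above 0, but only 10 of the 65 points are, and 3.97% of listed genes with a window held a match.

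Most other listed genes of the pathway were lower as well. Of 44 genes listed for interferon production, signalling and antigen processing, 32 were in the table. Of these 32, 26 were lower (against 49.6% of all listed genes) and 4 were higher (against 47.1% of all listed genes). The higher ones were *Ptpn6*, *Ifngr1*, *Traf3* and *Rnaseh2a*, and 2 did not pass the cut-off (*Tbk1*, *Il10rb*). The median log2 fold change of the 32 was -0.45. *Irf7*, the factor that amplifies interferon transcription, was the lowest, with 634 ± 76.3 normalized counts in EV and 132 ± 13.1 in *Hdac3* KO (SD, n = 4 each, log2 fold change -2.26, SE 0.085). *Irf9* and *Stat2*, which encode factors that bind the ISRE together, were lower too, with log2 fold changes of -0.93 (SE 0.055) and -0.59 (SE 0.064). The enzymes that activate ISG15 and carry it to its targets, *Uba7* (-1.33, SE 0.128) and *Ube2l6* (-1.14, SE 0.041), were lower by more than *Isg15* itself. *Ifnb1*, *Ifna4*, *Mavs*, *Irf1* and *Jak1* were among the 12 not in the table analysed here.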

How the data were processed

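The data are 8 bulk RNA-Seq libraries of MCECs, 4 *Hdac3* KO and 4 EV. Groups and replicate numbers were taken from the sample titles. The members and gene lists were chosen with earlier results of these data known, so no list was tested as a set.

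RNA was extracted with the RNeasy Plus Mini kit and libraries were sequenced on an Illumina NextSeq500, and the authors mapped the reads with tophat2 and bowtie2 (mm10). The submitters' processing notes name CASAVA, DESeq 1.6.3 and mm10. Raw read counts per gene were deposited, and the program that assigned them, its annotation and its use of strand are not given in the sources used here. The authors scaled these by gene length and sequencing depth to the FPKM values (reads per kilobase and library total). Group means of size-factor-normalized counts (a signal) and the log2 fold changes, p-values and adjusted p-values of the authors' own comparison are also deposited, and none was used as a result.

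Library totals were recovered from count, gene length and FPKM and multiplied by TMM factors (edgeR 4.0.16, R 4.3.3). *Hdac3* KO was compared with EV by the quasi-likelihood test of edgeR, with Benjamini-Hochberg adjustment over 8278 genes, an adjusted p-value cut-off of 0.01 and no filter. The script was first tested on simulated data. Normalized counts are counts divided by relative library size, and groups are given as mean ± SD (n = 4). With 15775327 to 22255684 reads per library, genes with few reads have wide errors, and reads of a library are not independent molecules, since no molecular identifiers are named.

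Genes named were *Hdac3*, all sensors, in each other role the up to 3 lowest and up to 2 highest members that reached 100 normalized counts in a group, the 5 members with the highest FPKM and the higher members outside the Trim family. Other genes are named so that every member is accounted for, and were chosen after their values were seen. The values of 1 further gene of the pathway list are not reported here. Alternatives were DESeq2 1.42.0, its size factors, no TMM, a low-count filter (10 counts in 4 libraries), protein-coding genes only, other cut-offs, adjustment over 30000 genes, a replicate block, FPKM ratios and leaving out each library. Shared 50-base stretches and exon overlaps were computed from GENCODE M21. Promoter windows from RefSeq (GRCm38.p6) were matched by symbol. Python was 3.11.15 and matplotlib 3.10.9.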

Additional observations from a re-analysis of the deposited data

Results flagged for a closer look

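In 7 of the 92 groups of 4 libraries of the named genes, 1 library stood apart from the other 3 by Dixon's test, against 4.6 such groups (1 in 20) that chance alone gives. *Adar* had 1586 normalized counts in EV replicate 1 (1493 to 1505 in the others), and its log2 fold change without that library was -0.43. *Bst2* and *Igtp* stood low in EV replicate 3, at 2481 (2635 to 2650 in the others) and 173 (207 to 211 in the others), with log2 fold changes of -1.17 and -1.33 without it. *Apol9a* and *Apol9b*, which share sequence, stood low in *Hdac3* KO replicate 4, at 804 (895 to 899 in the others) and 457 (525 to 533 in the others), with -0.47 and -0.65 without it. *Isg15* had 672 in *Hdac3* KO replicate 1 (646 to 650 in the others) and a log2 fold change of -0.38 without it. *Trim16* had 183 in *Hdac3* KO replicate 4 (156 to 157 in the others), and its call was lost without it (log2 fold change 0.23).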

How the results depend on the processing

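Of 90 members, 79 had the same call in each of 15 alternative fits. The low-count filter left out *Mx1*, *Iigp1*, *Apol10b* and *Trim34b*, which so had no call there, and gave 73 lower, 13 higher and a median of -1.06. *Gbp4*, *Apol10b*, *Trim41*, *Trim32*, *Trim33*, *Trim59*, *Trim16* and *Trim7* lost their call in at least 1, and *Trim32* changed sign without TMM (-0.0049). Without TMM the median of all listed genes shifted by -0.117, to -0.06, the members' median was -1.25, 77 members were lower and 9 higher, and all listed genes split into 4120 lower and 2671 higher instead of 4107 and 3895. Relative to the listed genes the members' median difference was -1.19 with or without TMM. A change of scaling moves all genes by nearly the same amount, so this is no test of the members. The TMM factors were computed from the listed genes alone. The ratio of group mean FPKM gave a median of -1.26. With a log2 fold change of at least 1 in size also required, 49 members were lower and 2 higher, since fewer genes can pass. Leaving out each library in turn gave 74 to 77 lower, 11 to 13 higher and a median of -1.14 to -1.09.

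With the replicate number as a replicate block, 77 members were lower and 13 higher, with a median of -1.14. Same-numbered samples did not deviate together (r from -0.107 to 0.119 over 7183 genes), so they share only a number, and the block changed no call of a named gene. DESeq2 gave 76 lower and 12 higher. Depth limits *Mx1*, *Trim34b*, *Iigp1* and *Apol10b*, whose *Hdac3* KO libraries had 0 to 6 reads each.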

Other observations

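The 5 genes named here act in antigen processing and were chosen from the pathway list after their values were seen, so they say nothing of antigen processing genes as a group. *Nlrc5*, the transactivator of MHC class I genes, had a log2 fold change of -1.10 (SE 0.097, adjusted p = 2.0e-12 by edgeR), with 223 ± 15.1 normalized counts in EV and 104 ± 10.7 in *Hdac3* KO (SD, n = 4 each). *Tap1*, the peptide transporter, was lower by a like amount (-0.98, SE 0.072), as were the immunoproteasome genes *Psmb8* (-0.99, SE 0.190) and *Psmb9* (-0.87, SE 0.152), both with group means below 100 normalized counts. *B2m*, the light chain of class I molecules, stood at 906 FPKM in EV and 607 FPKM in *Hdac3* KO (-0.46, SE 0.026), above every member in level in both groups.

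*Ptpn6*, a phosphatase that dampens cytokine receptor signalling, had the largest difference among the 4 higher pathway genes, with 88.6 ± 10.2 normalized counts in EV and 164 ± 9.07 in *Hdac3* KO (log2 fold change 0.89, SE 0.108). *Samhd1*, which degrades nucleotides needed for reverse transcription, was abundant and differed little, with 3644 ± 57.3 and 2834 ± 30.2 normalized counts (-0.36, SE 0.028).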
